A study of Mus musculus with 18 samples.

Results

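Expression of 9 genes that encode the proteins of the embryonic basement membrane was followed in sorted cells of the gastrulating mouse embryo. The 9 genes are the laminin chains Lama1, Lamb1 and Lamc1, the collagen IV chains Col4a1 and Col4a2, the nidogens Nid1 and Nid2, the heparan sulphate proteoglycan gene Hspg2 (perlecan) and Sparc. They are 9 of the 24498 genes in the deposited table, and all 9 were among the 14711 genes that passed the filter on low values. The members were chosen by their measured values in this same table, as a family that was lower in the mutant cells of the middle gate with wide spread between replicates. That contrast, and every contrast that uses the middle gate, is therefore described for these genes with no test.

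The embryos were taken at embryonic day 7.5 and carried FoxA2 fused to the red fluorescent protein tagRFP on both alleles, in the controls as well as in the mutants. FoxA2, a pioneer transcription factor of the forkhead family, acts in endoderm and in the node and notochord. Control embryos, here WT, were homozygous for FoxA2WT-tagRFP, and mutant embryos, here ∆Hx, were homozygous for FoxA2∆Hx-tagRFP, which lacks 10 amino acids of an α-helix. Both were knock-in alleles on a mixed C57Bl6/J x CD-1 background, and the embryos were not sexed. About 10 embryos were pooled for a sort, and their extra-embryonic portion had gone to genotyping before dissociation. Cells were sorted by red fluorescence into High (above the signal of heterozygous cells), Mid (above autofluorescence and up to the heterozygous maximum) and Neg (no signal). Each of the 6 combinations, WT High, WT Mid, WT Neg, ∆Hx High, ∆Hx Mid and ∆Hx Neg, had 3 libraries. Nothing in the labels ties a library to its own litter or day, so p-values measure the spread between these libraries, which may be technical in part.

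A basement membrane is a thin sheet of extracellular matrix under an epithelium. Laminin trimers of an α, a β and a γ chain polymerise at the cell surface, collagen IV trimers form a covalent network, and nidogens and perlecan join the networks. Parietal endoderm, the extra-embryonic cell layer that lines the trophoblast, is known for secreting these proteins in large amounts into Reichert's membrane. The chains made there are those of laminin-111, Lama1, Lamb1 and Lamc1, with the α1 and α2 chains of collagen IV.

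Values are normalised read counts, that is reads per gene divided by 1 size factor per library. Libraries held 12302196 to 17194136 reads in genes, and 1 read was worth 0.825 to 1.37 units. Rn45s, a ribosomal RNA precursor, took 23.7% to 44.0% of the reads in genes. Its share was highest in the first WT Mid library (44.0%) and in the third ∆Hx Mid library (43.0%). Foxa2 values were 1556 to 2483 in High, 547 to 1229 in Mid and 20.3 to 62.5 in Neg, in the order of the gates. A gene's total cannot show the small deletion, so it checks the gates and not the genotype. The first WT Mid library stood apart from its replicates in the genes described here, and results that rest on it are given with and without it.

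The members lie on 8 chromosomes of the mm10 build, and all are protein-coding in GENCODE M21. Lama1 lies on chromosome 17 (67697259 to 67822647), Lamb1 on chromosome 12 (31265234 to 31329644) and Lamc1 on chromosome 1 (153218922 to 153332786). Nid1 lies on chromosome 13 (13437551 to 13512269), Nid2 on chromosome 14 (19751265 to 19811787), Hspg2 on chromosome 4 (137468769 to 137570630) and Sparc on chromosome 11 (55394500 to 55423183). Col4a1 (11198423 to 11312826) and Col4a2 (11312805 to 11449287) lie head to head on chromosome 8, on opposite strands. Their annotated first exons overlap by 22 bases, at chr8:11312805-11312826. Libraries of this kind do not record strand, so reads within those bases could not be assigned to either gene. The overlap is shown because the 2 genes share this start and kept a narrow ratio to each other in all libraries. It is read on the strand of Col4a2.
Col4a1 and Col4a2 start: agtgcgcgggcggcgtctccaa

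Sequence upstream of the start was taken from RefSeq for mm10 (GRCm38.p6), which held windows for 6 of the 9 members, not for Lama1, Lamc1 or Nid2. Annotated exons were trimmed off, which left 191 bases for Lamb1, 199 for Nid1 and 216 for Hspg2. It left 0 for Col4a1, 0 for Col4a2 and 5 for Sparc. The windows of Lamb1, Nid1 and Hspg2 are printed for that reason, not for their expression. Capitals mark the GC box (GGGCGG) and the CCAAT box (CCAAT), searched on both strands. All 3 genes lie on the forward strand, at chr12:31265043-31265233 for Lamb1, chr13:13437352-13437550 for Nid1 and chr4:137468553-137468768 for Hspg2.
Lamb1: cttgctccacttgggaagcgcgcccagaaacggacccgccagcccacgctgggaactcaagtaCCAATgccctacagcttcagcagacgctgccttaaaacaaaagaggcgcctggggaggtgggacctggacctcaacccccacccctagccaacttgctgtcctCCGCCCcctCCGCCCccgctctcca
Nid1: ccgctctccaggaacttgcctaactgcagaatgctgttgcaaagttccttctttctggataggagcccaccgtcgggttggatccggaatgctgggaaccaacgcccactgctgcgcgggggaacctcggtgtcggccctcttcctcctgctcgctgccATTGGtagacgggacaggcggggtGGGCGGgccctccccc
Hspg2: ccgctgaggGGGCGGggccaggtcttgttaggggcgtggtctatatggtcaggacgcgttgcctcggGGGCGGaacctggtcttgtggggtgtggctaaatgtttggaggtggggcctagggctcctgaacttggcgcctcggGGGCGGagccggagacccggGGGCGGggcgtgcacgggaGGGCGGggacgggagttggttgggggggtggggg

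In the 250 bases upstream of the RefSeq start, the GC box occurred 5 times in Hspg2, 2 times each in Lamb1 and Col4a2, and 1 time in Nid1. A CCAAT box occurred 1 time each in Lamb1, Col4a1, Col4a2 and Nid1. Sparc held neither, but its RefSeq start (55420080) lies inside the gene model that begins at 55423183. Among all 32851 RefSeq windows of this length 32.7% held a GC box and 33.8% a CCAAT box. Letters of a SOX motif (ACAAAG or the variant ACAATG, in 25.2% of all windows), a FOX motif (TGTTTAC, 3.17%) and an E box (CACGTG, 6.02%) were in none of the 6 windows. The same was true of the GATA-factor letters AGATAA and of the variant with T in first place, TGATAA, which 16.6% of all windows held. These are matches of letters in short windows and say nothing of binding.

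The laminin chains had their highest values in WT Mid. Lama1, the α1 chain, was at 30072, 4065 and 7011 in the 3 WT Mid libraries and at 1141, 1010.2 and 1432 in ∆Hx Mid. It was at 225, 371 and 317 in WT High, 658, 504 and 664 in WT Neg, 256, 293 and 156 in ∆Hx High, and 580.4, 559 and 516 in ∆Hx Neg. So the WT Mid libraries were above all others, ∆Hx Mid came next without overlap, and Lama1 was the only member with lower values in High than in Neg in both genotypes. Lamb1, the β1 chain, was at 38629, 7184 and 10118 in WT Mid and 3442, 3627 and 4158 in ∆Hx Mid, against 1943 to 2128 in WT Neg and 1849 to 1886 in ∆Hx Neg. Lamc1, the γ1 chain, was at 19844, 2938 and 3473 in WT Mid and 944, 969 and 1679.7 in ∆Hx Mid. Its other 12 libraries lay between 823 and 1428, so ∆Hx Mid overlapped High and Neg for this chain.

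Collagen IV was also highest in WT Mid and next in ∆Hx Mid. Col4a1, the α1 chain of collagen IV, was at 68389, 12276 and 21480.2 in WT Mid, 6076, 5449.8 and 7687 in ∆Hx Mid, 3214 to 4851 in WT High, 2908 to 3529.6 in ∆Hx High and 2344 to 2526 in the 6 Neg libraries. Col4a2, the α2 chain, was at 32599.9, 6428 and 9378 in WT Mid, 2796, 2632 and 4193 in ∆Hx Mid, 1406 to 2521 in the High libraries and 957 to 1170.1 in the Neg libraries. Within each genotype Mid was above High and High above Neg without overlap for both chains. Sparc, a collagen-binding glycoprotein made in quantity by parietal endoderm, was at 37581, 5335 and 9018 in WT Mid and 2366, 2483 and 3402 in ∆Hx Mid. It was at 1676 to 2095 in the High libraries and 1068 to 1341 in the Neg libraries.

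The linker genes parted from each other. Nid1, nidogen-1, was at 16229, 2245 and 3437 in WT Mid and only 303, 496 and 512 in ∆Hx Mid, where it overlapped ∆Hx High (339, 417 and 578). Nid2, nidogen-2, was at 2639.9, 3669.7 and 3852 in WT Mid and 2743, 2901 and 2985 in ∆Hx Mid. These groups overlapped, and the first WT Mid library, highest for most members, was the lowest of its group for Nid2. Hspg2 was at 1941, 1353 and 1254 in WT Mid and 1046, 1014 and 1088 in ∆Hx Mid, a narrow gap with no overlap. Its values in WT High, 1299.5, 1702 and 1020.1, overlapped both Mid groups.

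**Figure D1:**
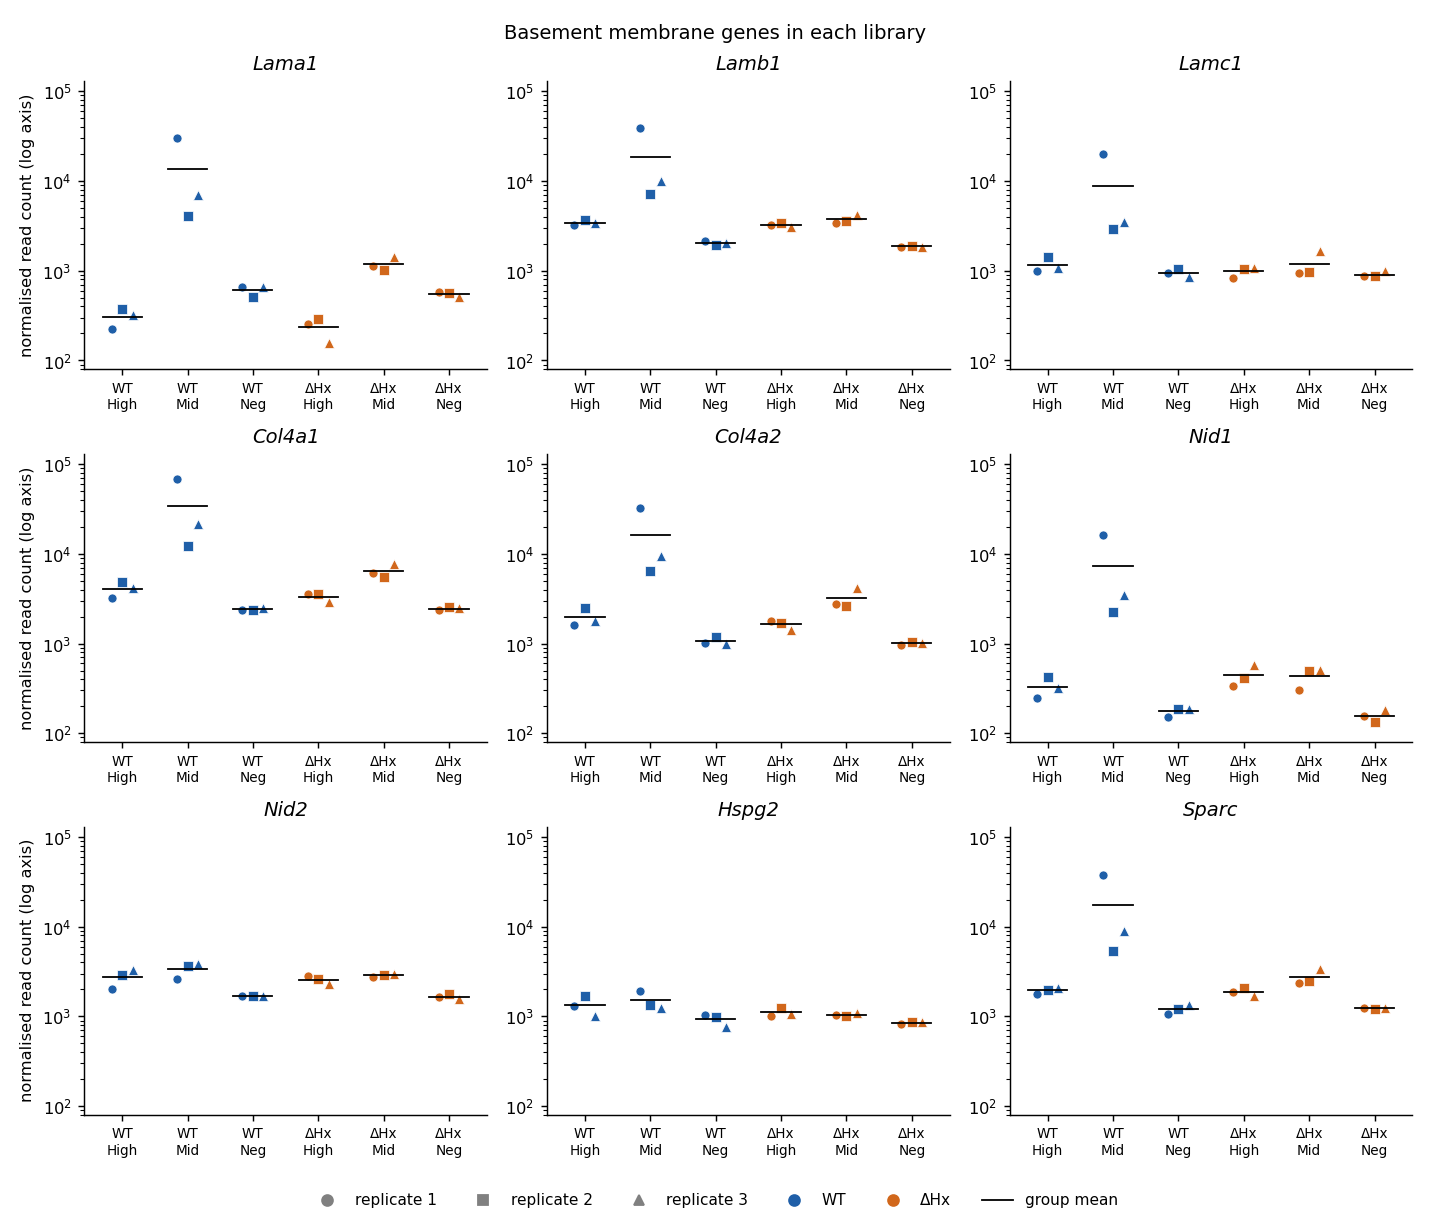
Normalised read counts of the 9 genes in all 18 libraries, on a log axis, by genotype and gate, with 1 symbol per replicate number and a line at the group mean. WT Mid replicate 1 stands above its replicates in 8 panels, far above in 7 (38629 for Lamb1, 16229 for Nid1) and by less for Hspg2 (1941), but not for Nid2, where it is the lowest of its group at 2639.9.

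Per kilobase of exon the order of the members also differed between groups. In WT Neg the mean levels (± SD, n = 3) were 326 ± 2.66 per kilobase for Nid2, 322 ± 11.1 for Col4a1 and 319.7 ± 36.1 for Sparc, whose libraries overlapped. Lamb1 (206 ± 9.39), Col4a2 (160.1 ± 14.7) and Lamc1 (113 ± 11.4) followed, then Hspg2 (65.0 ± 10.5) and Lama1 (62.9 ± 9.36), whose libraries also overlapped, and Nid1 (25.3 ± 2.86). WT High had the same genes in front, Col4a1 (545 ± 110.0 per kilobase), Nid2 (529 ± 129.9) and Sparc (516 ± 41.2), again overlapping, and ended with Hspg2 (93.7 ± 24.0), Nid1 (47.4 ± 13.1) and Lama1 (31.5 ± 7.62). In ∆Hx Mid Col4a1 (858 ± 155 per kilobase) and Sparc (726 ± 149.7) overlapped each other, and both lay above Nid2 (556 ± 23.8). Col4a2 (485 ± 129.6) overlapped Sparc, Nid2 and Lamb1 (377 ± 37.5). Lamc1 (145 ± 50.5) and Lama1 (123 ± 22.3) overlapped there, as did Hspg2 (73.3 ± 2.59) and Nid1 (63.0 ± 16.7). In WT Mid the mean levels ran from 4570.1 ± 4659.5 per kilobase for Sparc and 4562 ± 4032 for Col4a1 to 655 ± 126 for Nid2 and 106 ± 26.0 for Hspg2. For 7 genes the SD there was close to the mean or above it, so these libraries set no firm order among them.

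The genotype difference in Mid, which chose the family, is given as ∆Hx minus WT of mean log2(value + 1). It was -3.01 for Lama1, -1.92 for Lamb1 and -2.35 for Lamc1 among the laminin chains. For collagen IV it was -2.05 (Col4a1) and -2.00 (Col4a2), and for Sparc -2.17. Nid1 had -3.55, while Nid2 had -0.22 and Hspg2 -0.50. The WT and ∆Hx libraries did not overlap for 8 of the 9 genes, all but Nid2, against 10.9% of all genes tested, and the median difference was -2.05 against 0.0042 over all genes. In this contrast 0.326% of all genes were called lower and 0.0748% higher. Nothing is read from these counts, since the contrast chose the genes. In such bulk RNA, fewer cells of a type and less RNA per cell cannot be told apart.

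Much of the size of the difference came from 1 library. WT Mid replicate 1 exceeded replicate 2 by 5.07-fold (Col4a2) to 7.40-fold (Lama1) in 7 members, by 1.43-fold for Hspg2, and was 0.719 of it for Nid2. Those 7 genes were at least 4-fold higher there than in the mean of replicates 2 and 3 on the log2 scale, as were 172 of 14711 genes (1.17%). Without that library the Mid difference was -2.70 for Nid1, -2.17 for Lama1, -1.47 for Lamc1, -1.36 for Col4a1, -1.35 for Sparc, -1.31 for Col4a2, -1.19 for Lamb1, -0.39 for Nid2 and -0.31 for Hspg2. Its sign was the same for all 9 genes, and the lowest WT Mid value was 1.53 times (Col4a2) to 4.38 times (Nid1) the highest ∆Hx Mid value in the 7 genes. The 9 genes together took 2.39% of the reads in genes other than Rn45s in WT Mid replicate 1, 0.452% in replicate 2 and 0.660% in replicate 3. The share was 0.207%, 0.207% and 0.270% in ∆Hx Mid, 0.145% to 0.207% in High and 0.0977% to 0.107% in Neg. As a measure of spread, the median SD of log2 over the 9 genes was 1.28 in WT Mid against 0.282 over all genes, and 0.0625 to 0.340 in the other 5 groups. Wide spread between replicates was part of how the family was chosen. So nothing is read from the gap to all genes, either in this SD or in the 1.17% above.

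**Figure D2:**
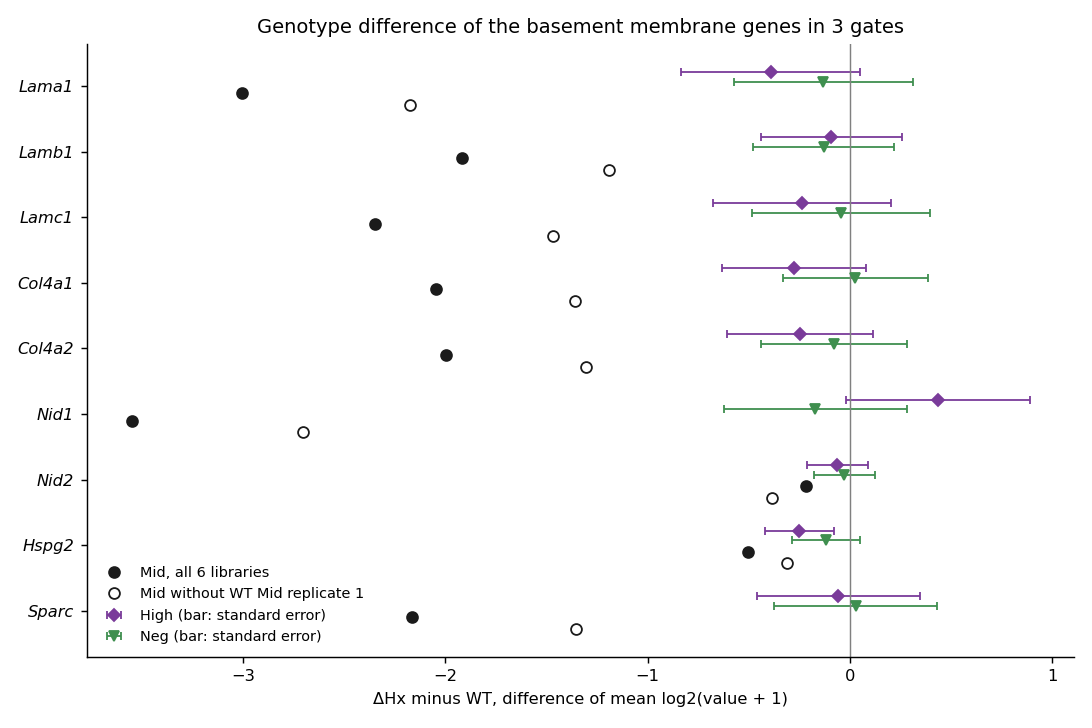
Difference ∆Hx minus WT of mean log2(value + 1) for each gene in Mid with all libraries (filled circles), in Mid without WT Mid replicate 1 (open circles), and in High and Neg with standard errors. In Mid, 7 genes lie between -1.19 and -3.55 under both settings, while Nid2, Hspg2 and all High and Neg values lie nearer to 0.

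Ratios between members show which genes kept step from library to library. They are ratios of normalised read counts without a correction for length, so each is compared between libraries only. Col4a1 over Col4a2 lay between 1.83 and 2.54 in all 18 libraries, although Col4a1 itself ranged from 2344 to 68389. Sparc over Col4a1 lay between 0.389 and 0.593, and Lamc1 over Lamb1 between 0.252 and 0.532. These ranges still held shifts between gates. Col4a1 over Col4a2 was 2.42 to 2.46 in ∆Hx Neg, against 1.97 to 2.07 in ∆Hx High and 1.83 to 2.17 in ∆Hx Mid. In WT the gates overlapped for that pair. Lamc1 over Lamb1 was 0.308 to 0.384 in WT High against 0.412 to 0.532 in WT Neg. In ∆Hx it was 0.252 to 0.355 in High against 0.459 to 0.530 in Neg. Sparc over Col4a1 was 0.532 to 0.593 in ∆Hx High against 0.389 to 0.456 in ∆Hx Mid, while these gates overlapped in WT. Lama1 over Lamb1 did not hold: it was 0.679 ± 0.107 in WT Mid, 0.318 ± 0.0350 in ∆Hx Mid, 0.298 ± 0.0338 in WT Neg, 0.296 ± 0.0169 in ∆Hx Neg, 0.0877 ± 0.0157 in WT High and 0.0722 ± 0.0187 in ∆Hx High (SD, n = 3). So the ratio of Lama1 to Lamb1 was lowest in High, and in ∆Hx Mid it was close to that of the Neg cells. Nid1 over Nid2 was 6.15, 0.612 and 0.892 in the WT Mid libraries and 0.0749 to 0.254 in the other 15.

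**Figure D3:**
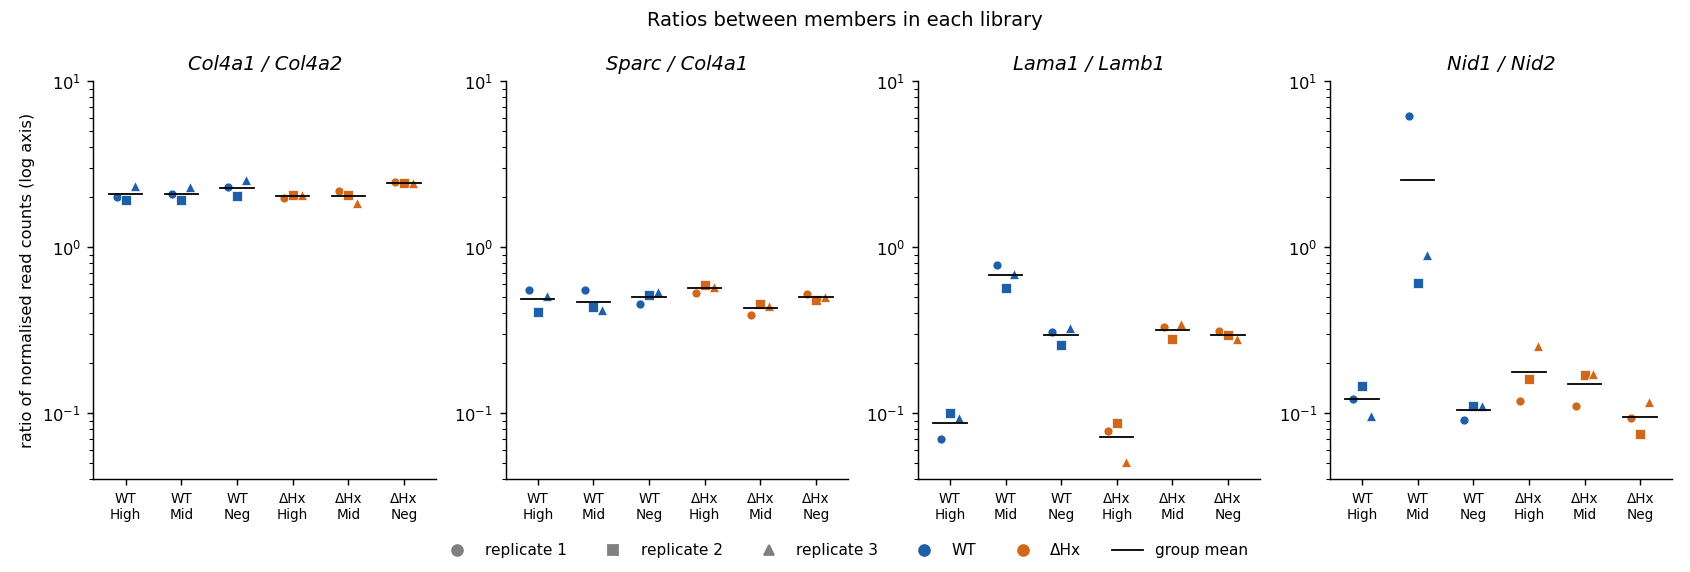
Ratios of normalised read counts (log axis) for 4 pairs of members in all 18 libraries, with a line at the group mean. Col4a1 / Col4a2 and Sparc / Col4a1 stay within 1.83 to 2.54 and 0.389 to 0.593, while Lama1 / Lamb1 ranges from 0.0512 to 0.778 and Nid1 / Nid2 from 0.0749 to 6.15.

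Across the 18 libraries, the log2 values of Col4a1 had a Pearson r of 0.994 with the mean of the other 8 members, and those of Sparc 0.991, Col4a2 0.988, Lamb1 0.980, Nid1 0.965, Lamc1 0.952 and Lama1 0.854. Hspg2 (0.727) and Nid2 (0.588) were less alike. After the group means were taken out, Nid2 deviated against the others (r = -0.41) and Hspg2 weakly with them (0.589), while the other 7 had 0.897 to 0.982. These r values are descriptions. They share the libraries, and the WT Mid replicates carry most of the spread.

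The label of parietal endoderm was set against marker genes. The summed values of the 10 parietal endoderm markers were 27652, 15237 and 18564 in WT Mid, 12789 to 13768 in ∆Hx Mid, 5166 to 5784 in Neg and 3040.3 to 4971 in High. Dab2, an endocytic adaptor also made by visceral endoderm, supplied much of that sum in Mid, at 7480.1 to 9656 in WT Mid and 6988 to 7977 in ∆Hx Mid. In Neg the largest part was Pdgfra, at 2082 to 2581, against 47.9 to 126.5 in High. The order of Neg and High in the sum thus rests in large part on that gene. Grouped by their values in Mid, 4 of the 10 markers separated both the WT libraries and the genotypes in the way most members did. Sox7, a transcription factor of parietal endoderm, was at 1478, 194 and 388 in WT Mid and 53.0, 20.5 and 88.9 in ∆Hx Mid. Thbd, thrombomodulin, was at 1769, 312 and 444 against 41.9, 27.3 and 50.2, and Pth1r, the parathyroid hormone receptor, at 3306, 967 and 1023 against 703, 722 and 869. Plat, tissue plasminogen activator, was at 1334, 570.2 and 694 against 362, 326 and 346. Each of these 4 genes was highest in WT Mid replicate 1, with no overlap between the genotypes.

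Other listed markers varied less between the genotypes in Mid, though Snai1, Gata4, Gata6 and Pdgfra were also highest in WT Mid replicate 1. For those genes the genotypes overlapped, while for Sox17 they did not. Snai1 was at 1639.9, 579 and 751 in WT Mid and 468 to 608 in ∆Hx Mid, Gata4 at 1114 to 3391 and 879 to 1146, Gata6 at 195 to 889 and 209 to 439, Pdgfra at 1514 to 4418 and 1404 to 1778, and Sox17, shared with embryonic endoderm, at 1680.1 to 2013 and 1188 to 1432. Tested with limma over all genes and adjusted by Benjamini-Hochberg, 2 of the 10 parietal markers were called lower in ∆Hx Mid and 0 higher, with a median of -0.79. They were Sox7 (-3.36 ± 0.70 (SE), adjusted p = 0.0347) and Plat (-1.23 ± 0.25, adjusted p = 0.0277). Both calls are lost without WT Mid replicate 1 (adjusted p = 0.202 and 0.126) and in a model of the 2 Mid groups alone (0.384 and 0.408). Of 16 alternatives, 8 lost the Sox7 call and 5 the Plat call. Of all genes 0.326% were called lower in this contrast and 0.0748% higher. The contrast also chose the members, and the marker list was made with earlier results of these data known. For Thbd the values themselves show the gap, but it did not pass.

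Visceral endoderm, the other extra-embryonic endoderm, had markers with high values in the Mid gate of both genotypes. The summed values of its 10 markers were 37747 to 46277 in WT Mid and 41706 to 47139.5 in ∆Hx Mid, against 835 to 2161 in Neg and 1545 to 8244 in High, and 0 of 10 were called between the genotypes in Mid (median 0.05). Apoa1, an apolipoprotein, was at 8024, 8856 and 7831 in WT Mid and 7301, 8382 and 10157 in ∆Hx Mid. Among the Mid libraries the visceral sum was lowest in WT Mid replicate 1, where the parietal sum and all members but Nid2 were highest. Within WT Mid, Dab2 was lowest in that replicate and Sox17 was highest in replicate 3. Trophoblast, which lies against parietal endoderm, gave summed values of 164 to 389.7 in WT Mid and 332 to 400.1 in ∆Hx Mid. These lay below Neg (1888 to 2439, of which Hand1, also a mesoderm gene, gave 1288 to 1622). In all WT Mid libraries 4 of its 10 markers were at 0, among them Prl3d1 of giant cells, against 3 in WT Neg and 4 in ∆Hx High. The others at 0 in WT Mid, Prl3b1, Prl2c2 and Tpbpa, had 2, 5 and 4 reads over all libraries and did not pass the filter. Maternal decidua markers summed to 833, 594 and 443 in WT Mid and 586 to 709.9 in ∆Hx Mid. In the 6 Neg libraries Sox7 was at 83.8 to 168 and Thbd at 10.3 to 47.1, so in ∆Hx Mid these 2 parietal markers overlapped Neg, while Pth1r (134 to 216 in Neg) and Plat (112 to 168) lay above it without overlap. The WT Mid libraries thus carried markers of both extra-embryonic endoderm lineages. The extra-embryonic portion had been removed before dissociation, and where the cells with these markers came from was not tested. In ∆Hx Mid Dab2 was the largest part of the parietal sum. The part of cell makeup in the difference between genotypes was not tested.

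The genes that mature collagen were listed as a group of 24. They include the prolyl hydroxylases, lysyl hydroxylases and chaperones that act in the endoplasmic reticulum before collagen IV can be secreted. In Mid 2 of 24 were called lower in ∆Hx by limma and 0 higher, and the median was -0.61. P4ha2, a catalytic chain of prolyl 4-hydroxylase, was at 4567, 452 and 844 in WT Mid and 124, 86.8 and 152 in ∆Hx Mid (-3.34 ± 0.54 (SE), adjusted p = 0.00695, and -2.38 without WT Mid replicate 1). Plod2, a lysyl hydroxylase, was at 4637, 991 and 1401 in WT Mid and 548, 626 and 657 in ∆Hx Mid (-1.61 ± 0.33, adjusted p = 0.0296, and -0.95 without that library). Again WT Mid replicate 1 was several times above its replicates for both genes. The count depended on the test: edgeR called 6 and DESeq2 11 of the 24 on the recovered reads, limma called 10 without WT Mid replicate 2, and 0 without ∆Hx Mid replicate 2 or with the Mid groups alone. The calls over all genes, in either direction, moved too, from 59 of 14711 in the main model to 74 with edgeR and 179 with DESeq2. They were 129 without WT Mid replicate 2, 13 without ∆Hx Mid replicate 2 and 3 with the Mid groups alone.

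Of the 30 other basement membrane genes 25 passed the filter, and 1 was called lower in ∆Hx Mid, 0 higher, with a median of 0.05. Tinagl1, a laminin-binding matrix protein, was at 3345, 454 and 1038 in WT Mid and 148, 114 and 242 in ∆Hx Mid (-2.86 ± 0.53 (SE), limma adjusted p = 0.0184). The call is lost without WT Mid replicate 1 (adjusted p = 0.0743). None of the laminin chains of other trimers was called in Mid. Lama4 (-2.47 ± 0.75 (SE), adjusted p = 0.237) and Lama2 (-1.70 ± 0.59, adjusted p = 0.357), both at low values of 0 to 53.4 in the 6 Mid libraries, were farthest from 0, and Lama5 was at 0.20 (adjusted p = 0.844). Among the receptors of basement membranes 0 of 14 tested genes were called in Mid, and among matrix proteases and their inhibitors 0 of 13, with medians of -0.02 and -0.07. With edgeR 1 other basement membrane gene was called lower in Mid, as with DESeq2.

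**Figure D4:**
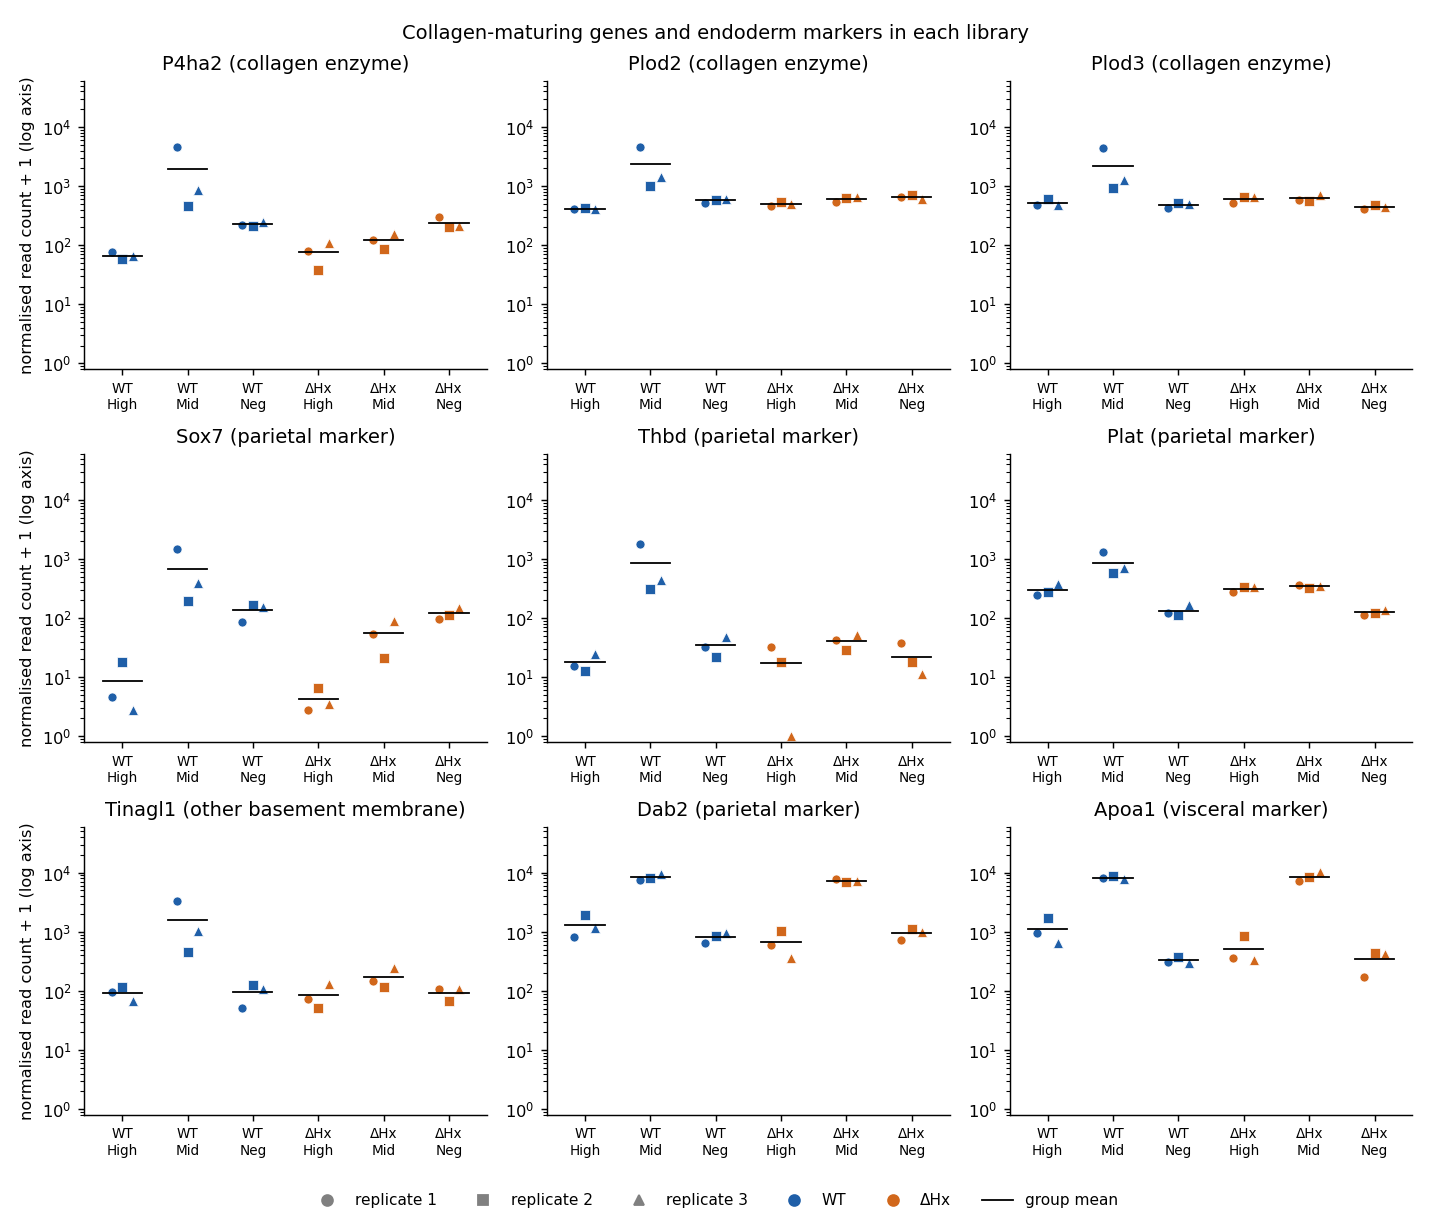
Normalised read counts plus 1 (log axis) in all 18 libraries for 3 collagen-modifying enzymes, 4 parietal endoderm markers, Tinagl1 and the visceral endoderm marker Apoa1, with lines at group means. P4ha2, Plod2, Plod3, Sox7, Thbd, Plat and Tinagl1 peak in WT Mid replicate 1, while Dab2 and Apoa1 are similar in the 6 Mid libraries.

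Genes with patterns most like the mean of the 9 members were ranked over the 18 libraries, among 11957 other genes with a mean of at least 20. P4hb, the shared subunit of prolyl 4-hydroxylase, came first (r = 0.969), at 28605, 16049 and 17003 in the WT Mid libraries and a mean of 14150 in ∆Hx Mid. Serping1 (0.965), Plod3 (0.960), P4ha1 (0.960), Stt3a (0.950), Erp29 (0.941), Tinagl1 (0.939), Ssr2 (0.938), Rcn1 (0.934) and Epas1 (0.933) followed. Of these P4hb, Plod3 and P4ha1 are in the collagen list, and Tinagl1 is in the basement membrane list. An r over 0.9 was reached by 29 genes, 0.243% of those ranked. With group means taken out the first 10 were Plod3 (0.968), Plod1 (0.957), Plod2 (0.957), Cmtm7 (0.949), P4hb (0.947), Txndc12 (0.940), Zrsr2 (0.928), Rcn1 (0.927), P3h1 (0.927) and Col6a2 (0.927). The 3 lysyl hydroxylase genes thus held the first 3 places. All 3 were highest in WT Mid replicate 1 (2014 against 543 and 642 for Plod1), where most members were highest too. Neither ranking was repeated without that library, so both may rest on it in large part. Plod3 was at 4347, 923 and 1281 in WT Mid and 587, 553 and 716 in ∆Hx Mid.

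Outside the Mid gate the comparison of High with Neg was not used to choose the genes, and it was tested. The differences use no Mid library, but the standard errors share the spread of the Mid libraries. Wide spread there was part of the choice, so p-values and missed calls of the members are not free of it. The summed values of 6 node and notochord markers were 22816 to 35762 in High and 1678 to 3354 in Neg, so the 2 gates differ widely in these markers. In WT embryos limma called 2 of the 9 genes higher in High: Nid2 (0.67 ± 0.15 (SE) on the log2 scale, adjusted p = 0.00133) and Hspg2 (0.51 ± 0.17, adjusted p = 0.0199). The Hspg2 call is lost without WT High replicate 2 (adjusted p = 0.143) or WT Neg replicate 3 (0.121). No member was called lower. Of all genes, 22.6% were called higher and 21.8% lower, so a count of 2 of 9 is close to the background. Unadjusted p was under 0.05 for 5 members and for 51.1% of all genes. The median was 0.69 against 0.0176 for all genes, and the groups did not overlap for 7 members against 54.7% of all genes.

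In ∆Hx embryos 2 genes were called higher in High and 1 lower, against 21.5% and 21.1% of all genes. Nid1 rose by 1.48 ± 0.45 (SE) on the log2 scale (limma adjusted p = 0.0128) and Nid2 by 0.63 ± 0.15 (adjusted p = 0.00218). Lama1 fell by 1.28 ± 0.44 (adjusted p = 0.0257). The Lama1 call is lost with DESeq2 (adjusted p = 0.0534) and without ∆Hx High replicate 3, ∆Hx Neg replicate 1 or ∆Hx Neg replicate 2. That of Nid1 is lost without ∆Hx High replicate 3 (adjusted p = 0.0586). In WT embryos Lama1 had -1.01 ± 0.44 (adjusted p = 0.0703). The other members had 0.11 (Lamc1) to 0.79 (Lamb1) in ∆Hx and 0.30 (Lamc1) to 0.87 (Nid1) in WT.

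Each gene has 1 spread for all 6 groups in this model, and for 7 members the SD of log2 was largest in WT Mid (1.23 to 1.53). For Nid2 and Hspg2 it was largest in WT High (0.379 and 0.369). In a model without WT Mid replicate 1, chosen after seeing the data, the differences are the same but the standard error of Lamb1 went from 0.348 to 0.104, and 7 members were called higher in High in each genotype and 1 lower. That model called 23.7% of all genes higher and 22.6% lower in WT, and 22.4% and 22% in ∆Hx. The 7 were all members but Lama1 and Lamc1, and the one called lower was Lama1. In WT the adjusted p was then 8.38e-06 for Lamb1, 0.00133 for Col4a1, 0.000498 for Col4a2, 0.00134 for Sparc and 0.00590 for Nid1, and for Lama1 it was 0.00132. Lamc1 did not pass in either genotype (adjusted p = 0.191 in WT and 0.665 in ∆Hx). So Lama1 lay below Neg in High while its partner Lamb1 lay above it, in 3 of 3 libraries of both genotypes.

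**Figure D5:**
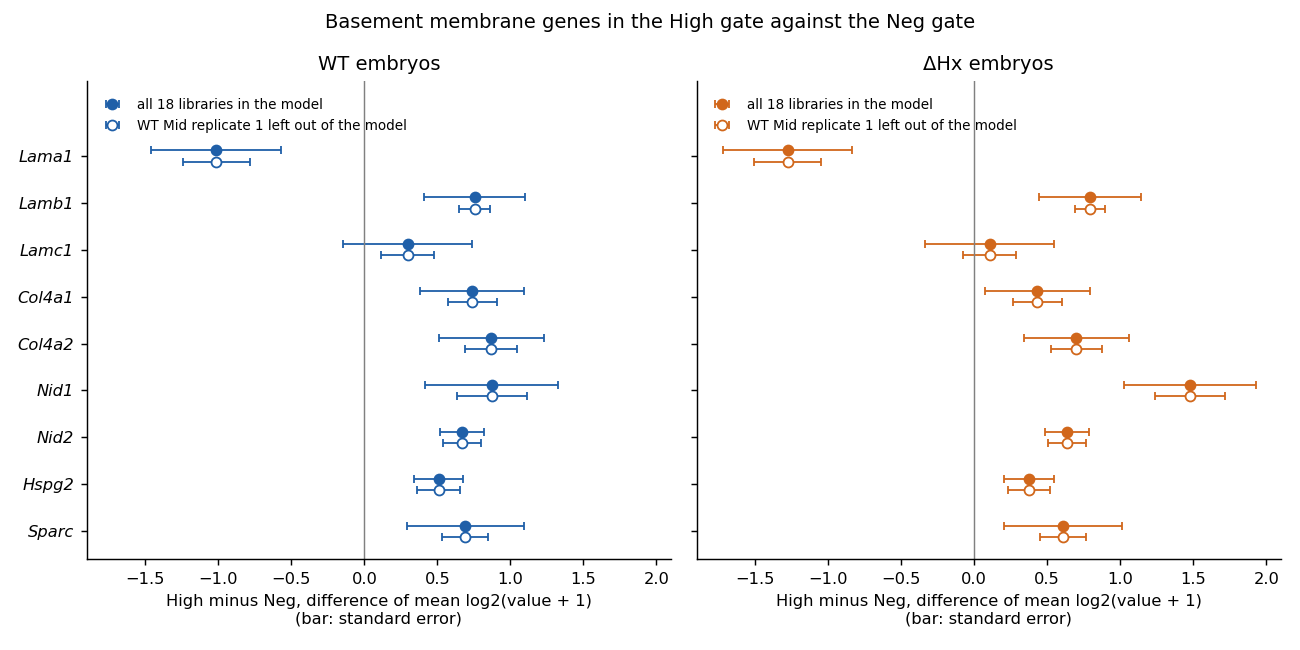
High minus Neg of mean log2(value + 1) with standard errors for each member, WT left and ∆Hx right, with all 18 libraries in the model (filled) and with WT Mid replicate 1 left out (open). The points coincide and the bars shorten for all 9 genes, in both panels from 0.348 to 0.104 for Lamb1 but only from 0.151 to 0.130 for Nid2.

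The other lists were counted in the same way between High and Neg, to be read against the 22.6% of all genes called higher and 21.8% lower in WT and the 21.5% and 21.1% in ∆Hx. Of the 25 tested genes of the wider basement membrane list 13 were called higher in WT High and 4 lower, and 12 and 4 in ∆Hx. Smoc1, a matrix calcium-binding protein related to Sparc, rose by 2.66 ± 0.17 (SE) in WT (limma adjusted p = 3.15e-10) and 2.96 ± 0.17 in ∆Hx. Egflam, pikachurin, rose by 2.57 ± 0.18 and 2.59 ± 0.18, and Frem2, of the Fras1 complex, by 2.35 ± 0.18 and 2.09 ± 0.18. Lamb3, a chain of laminin-332, rose by 3.25 ± 0.27 in WT and 2.30 ± 0.27 in ∆Hx, and Lama5, the α5 chain, by 1.38 ± 0.15 in ∆Hx and 1.54 in WT. Fbln1, fibulin-1, fell by 0.78 ± 0.10 and 0.72 ± 0.10, and Col18a1 by 1.31 ± 0.27 and 1.29 ± 0.27. Col4a6 (-1.45 ± 0.36 and -1.01 ± 0.36) and Lama4 (-2.25 ± 0.75 and -2.67 ± 0.75) were the other 2 called lower.

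Among the collagen-maturing genes 2 of 24 were called higher and 4 lower in WT High against Neg, and 1 and 3 in ∆Hx. Crtap (-0.67 in WT, -0.81 in ∆Hx), P3h2 (-1.02, -1.23) and P4ha2 (-1.78, -1.76) were lower in both. Called in WT only were Fkbp10 (-0.99 in WT, -0.55 in ∆Hx), P4ha3 (3.01, 1.29) and Mia3 (0.32, 0.22), and called in ∆Hx only was Pxdn, which crosslinks collagen IV (0.25, 0.34). Of 14 receptor genes 5 were higher and 4 lower in each genotype. Ddr1, a collagen receptor (0.91 and 0.96), Dag1, dystroglycan (0.79 and 0.82), and Bcam, a laminin receptor (1.07 and 1.31), rose, and Sdc1 (-0.84 and -0.72), Itga7 (-4.02 and -3.34), Itga1 (-1.94 and -1.68) and Itgb1 (-0.28 and -0.24) fell. Sdc4 (0.69 and 0.66) and Itga3 (1.17 and 1.59) also rose in both genotypes. Among 13 proteases and inhibitors 4 were higher and 2 lower in WT, and 5 and 3 in ∆Hx. Mmp15 (1.92 and 2.02), Mmp11 (1.57 and 1.94) and Timp3 (0.89 and 0.91) rose and the gelatinases Mmp2 (-1.88 and -1.42) and Mmp9 (-3.32 and -2.71) fell. Adamts9 (1.71 and 1.29) also rose in both. Htra1 (0.0077 in WT, 1.11 in ∆Hx) and Adamts1 (-0.58, -0.96) were called in ∆Hx only. All these values are log2 differences by limma, and the test of the difference between the genotypes called 0 genes. Of the 10 parietal markers 2 were higher in High and 4 lower in both genotypes: Sox17 (3.64 in WT) and Plat (1.17) against Pdgfra (-4.65), Snai1 (-2.87), Sox7 (-4.40) and Gata4 (-1.30).

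The genotypes were then compared within High and within Neg. In High 0 of 9 members were called by limma, with 0.0612% of all genes called higher and 0.0612% lower, and 0 had an unadjusted p under 0.05. The differences lay between -0.39 ± 0.44 (SE) for Lama1 and 0.43 ± 0.45 for Nid1, and the groups overlapped for all 9. In Neg 0 were called against 0.136% of all genes higher and 0.109% lower, and 0 had an unadjusted p under 0.05. The differences lay between -0.17 ± 0.45 for Nid1 and 0.03 ± 0.40 for Sparc, and the groups did not overlap for Lamb1 alone, by 1943 in WT against 1886 in ∆Hx, where 12.7% of all genes did not overlap. The effect of genotype in High minus that in Neg was called for 0 members and for 0% of all genes, 0 members had an unadjusted p under 0.05, and Nid1 was farthest from 0 (0.60 ± 0.64). edgeR and DESeq2 called 0 members in these 3 comparisons too, also with WT Mid replicate 1 left out of the limma model. The standard errors of these comparisons also hold the spread of the Mid libraries, which was part of the choice of members. A difference that misses the threshold under these standard errors is not shown to be absent.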

How the data were processed

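RNA equal to that of 1000 of the 2500 to 5000 sorted cells was made into SMART-Seq2 libraries and read for 75 bases from 1 end, per the labels' protocols. The authors deposited 1 table of signal values, read counts per gene divided by a size factor per library. The submitters' processing notes list the aligner STAR 2.5.2a, the counter HTSeq 0.6.1, then DESeq, DESeq2 and the mm10 build. The sources used here do not name the annotation. All 440964 values were whole multiples of 1 read within 1e-06. The 5 counter lines of HTSeq, which hold 7.17% to 12.1% of reads without a feature, 0.495% to 0.756% ambiguous and 37.7% to 41.3% not unique, were left out.

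The 14711 genes that reached a value of 10 in 3 or more libraries were fitted with limma 3.58.1 (R 4.3.3) on log2(value + 1), as 6 group means over 18 libraries with a variance trend. P-values were adjusted by Benjamini-Hochberg per contrast, with calls at an adjusted p under 0.05. Fold changes are on that scale, which understates changes of low genes. Levels per kilobase use the union of GENCODE M21 exons. Intervals are standard errors of the model or SDs of 3 libraries. The steps were tested on simulated data. Alternatives include edgeR 4.0.16 and DESeq2 1.42.0 on recovered reads.

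The members and lists were chosen with earlier results of these data known. Named were all members, up to 4 called genes per pathway list, direction and contrast with the smallest adjusted p, every parietal marker, up to 4 other markers per list with the highest mean, and the 10 genes most alike by levels and by deviations. Prl3d1, Nog and, in Mid, Lama2, Lama4 and Lama5 were added after their values were seen. Same-numbered libraries were not treated as pairs: their deviations correlated at -0.17 to 0.291 in 45 pairs, over 0.1 in 5.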

Additional observations from a re-analysis of the deposited data

How the results depend on the processing

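The counts of members called higher in High against Neg depended on the settings. In WT the 2 of the main model became 5 with quantile normalisation, 4 with equal totals without Rn45s, and 7 with the compared groups alone, with WT Mid replicate 1 left out of the model or without all WT Mid libraries, the last 2 chosen after seeing the data. They were 1 to 2 with single libraries left out (1 without WT High replicate 2 or WT Neg replicate 3, where Hspg2 did not pass). Lower calls in WT went from 0 to 1, Lama1, with quantile normalisation, the groups alone and both smaller models. In ∆Hx the 2 higher calls became 3 with quantile normalisation (Lamb1 was added), 4 with equal totals and 7 in the same 3 models, and 1 to 2 with single libraries left out, while the 1 lower call became 0 with DESeq2 and 0 to 1 with single libraries left out. Equal totals moved the median of all genes from 0.0176 to 0.130 in WT and from 0.00620 to 0.113 in ∆Hx, so values there are to be read against that shift. With the replicate block 2 members were called higher and 0 lower in WT and 2 and 1 in ∆Hx, and 0 in the genotype comparisons, as without it. In Mid the block called 2 collagen-maturing genes, 2 parietal markers and 1 other basement membrane gene lower, the same counts, though Sox7 itself did not pass (adjusted p = 0.0587).

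For ∆Hx against WT in Mid, the 2 collagen-maturing genes called lower became 6 with edgeR, 11 with DESeq2, 0 with the Mid groups alone and 0 to 10 with single libraries left out. Over all genes, the 59 calls in either direction became 74, 179, 3 and 13 to 129 in the same settings. The 2 parietal markers became 1 when the pseudocount was 0.5 or when low genes were kept, 0 with the Mid groups alone and 0 to 3 with single libraries left out. The 1 other basement membrane gene became 0 with the Mid groups alone and 0 to 1 with single libraries left out. Genotype differences near 0 changed sign with single libraries left out: in High Nid2 ranged from -0.27 to 0.090 and Sparc from -0.14 to 0.024, and in Neg Lamc1 from -0.12 to 0.029, Nid2 from -0.081 to 0.022 and Sparc from -0.059 to 0.10. Of the other results for single genes under alternatives 1978 counted as unchanged, 42 passed the threshold anew and 77 no longer passed. For tested results, unchanged means the same direction and side of the threshold. The members in Mid were not tested. For them it means a shift smaller than the larger SD of log2 of the 2 Mid groups, which was up to 1.53 (Lamc1). With 3 libraries a group and 1 divergent WT Mid library, the shared spread limits what the model resolves for these genes. The cause of that library's difference was not tested.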

Other observations

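Markers of lineages outside the endoderm were also measured in the Mid gate. Hand1, a factor of trophoblast and lateral mesoderm that is in both of those marker lists, was at 1288 to 1622 in the 6 Neg libraries and at 4.11 to 51.2 in the 6 Mid libraries. Kdr, a receptor of early endothelium and blood precursors, was at 835 to 1119 in Neg and 74.1 to 145 in Mid, and the embryonic globin Hbb-bh1 was at 0 in all WT Mid libraries and at 2.28 to 43.7 in ∆Hx Mid. The 6 mesoderm markers summed to 2804 to 4358 in WT Mid, 3378 to 4397 in ∆Hx Mid, 4643 to 5847 in Neg and 1367 to 2685 in High. Blood and endothelial markers summed to 217 to 253 in WT Mid, 265 to 294 in ∆Hx Mid and 1068 to 2325 in Neg. Node and notochord markers summed to 4538 to 6540.3 in WT Mid and 3570.3 to 5189 in ∆Hx Mid. In Mid limma called 1 of the 6 node and notochord markers lower in ∆Hx, Nog (-2.27 ± 0.45 (SE), adjusted p = 0.0277), named after its value was seen. Nog was at 732, 114 and 151 in WT Mid and 52.1, 63.4 and 31.9 in ∆Hx Mid. Without WT Mid replicate 1 the difference was -1.45 (adjusted p = 0.0348), and the call is lost without any 1 of the ∆Hx Mid libraries (adjusted p = 0.0757, 0.0710 and 0.131) or with the Mid groups alone (0.608). Of the 6 blood and endothelial markers 1 was called higher, Hbb-bh1 (adjusted p = 0.0363), a call that is lost with edgeR (0.177) and without any 1 of the WT Mid libraries (0.0567 to 0.107), ∆Hx Mid replicate 1 (0.209) or ∆Hx Mid replicate 2 (0.200), and 0 of the trophoblast, mesoderm and decidua markers were called.

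Epas1, a hypoxia-inducible factor gene outside all lists, was at 2989, 496 and 729 in the WT Mid libraries, with means of 132 in ∆Hx Mid and 73.0 in WT Neg. Serping1, the C1 inhibitor gene, was at 1075, 199.6 and 219.7 in WT Mid, with a mean of 76.6 in ∆Hx Mid. Both were highest in WT Mid replicate 1, as the laminin and collagen IV genes were.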
